A study of Mus musculus with 4 samples.

Results

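The capsule fibroblasts described here were picked out by transcripts of Krtdap, Sbsn and Dmkn, 3 neighbouring genes best known from the outer layers of the epidermis, together with Akr1c18 and Dact2. A barcode was a member when it held at least 500 unique molecular identifiers (UMIs), 300 or more genes and no more than 20% mitochondrial UMIs. It also needed at least 5 UMIs of Col1a1, Col1a2 and Col3a1 together and no UMI of Ptprc or Pecam1. Finally, at least 3 of the 5 named markers had to be detected, and more of them than of 5 markers of a second capsule population (Sfrp4, Prdm8, Fez1, Pla1a and Scara3). This gave 1742 cells, called Krtdap-set fibroblasts below, out of 37361 kept barcodes and 13001 barcodes that passed the collagen, Ptprc and Pecam1 gate. The same gate with the marker lists exchanged gave 3150 Sfrp4-set fibroblasts, and 8109 gated barcodes fell in neither set. The last group can include other cell types that carried collagen RNA from their surroundings.

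The renal capsule is a thin sheath of fibroblasts and collagen around the kidney. Krtdap, Sbsn (suprabasin) and Dmkn (dermokine) encode secreted proteins of the stratified epidermis, where they are made as keratinocytes differentiate. Akr1c18 encodes an aldo-keto reductase that inactivates progesterone, and Dact2 an intracellular modulator of Wnt and TGF-beta signalling. Fibroblasts with much Pi16, Dpp4 and Cd55 transcript are found in the outer coat of vessels and in connective tissue sheaths of many organs.

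Capsules dissected from the kidneys of young and aged mice were compared, with 2 libraries per age and no treatment. Tissue was dissociated enzymatically with Liberase TM and DNase I and passed through cell strainers, and droplet libraries were made with a 3' kit, per the labels' protocols. No age in weeks, no strain and no count of mice per library could be read from the labels used. Both libraries of an age may therefore be technical replicates, and a p-value reflects nothing but the spread among the 4 libraries. Total UMIs per library ran from 51180311 to 70925446 and kept barcodes from 6763 to 11973, and any pair of libraries shared between 22 and 40 barcode sequences. Young replicates 1 and 2 held 694 and 869 members, and aged replicates 1 and 2 held 61 and 118. Summed over members, UMIs came to 6344204 and 7713157 in the young and 557387 and 703258 in the aged libraries, so levels in aged members rest on far fewer molecules. Aged replicate 2 was the shallowest per cell, with a median of 5726.5 UMIs per member against 8980.5 and 8774 in the young libraries and 9046 in aged replicate 1.

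The members carried fibroblast transcripts, some of which the gate required. Levels are given as CPM: UMIs summed over the cells of a population in a library, per 1e6 UMIs of that sum. TMM factors were used in the edgeR tests and not in these levels. The 15 pan-fibroblast markers, which include Col1a1, Col1a2 and Col3a1 of the gate, summed to between 26175 and 35669 CPM. In other gated fibroblasts they summed to between 32058 and 46141 CPM. Dcn, which is no gene of the gate, encodes the collagen-binding proteoglycan decorin. It alone reached 10371 and 10387 CPM in the young and 13395 and 12351 CPM in the aged libraries. The receptor gene Pdgfra stood between 213 and 312 CPM. Despite the epidermal names of the leading genes, keratinocyte markers were nearly absent. Of 29 such markers 23 had a UMI in any of the summed populations. Of these 23, 8 had no UMI in members of any library, among them Trp63, Dsc3 and Grhl3. Together the 23 summed to between 70.0 and 77.5 CPM, to which the keratin gene Krt10 gave 29.9 to 61.0 CPM. The 12 mural markers summed to between 8.53 and 19.7 CPM. The 11 endothelial markers besides Pecam1, whose UMIs the gate excluded, summed to between 356 and 479 CPM, of which Ramp2 gave 295 to 441 CPM. In other gated fibroblasts the 11 summed to between 309 and 350 CPM.

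The promoters of the 3 epidermal genes are shown because these genes lie side by side and were detected together in the same fibroblasts. The rule itself favoured that joint detection, since all 3 are among its markers. On GRCm38, Sbsn lies at chr7:30751471-30756134, Dmkn at chr7:30763756-30781063 and Krtdap at chr7:30787896-30791097, all protein-coding and on the plus strand, so that the trio spans 39.6 kb. The RefSeq windows below run from 140 bases before to 10 bases after an annotated start on GRCm38.p6, 5′ to 3′ on the plus strand. Capitals mark the letters TGAGTCA, known as a recognition sequence of AP-1 factors.
Sbsn, chr7:30751331-30751480: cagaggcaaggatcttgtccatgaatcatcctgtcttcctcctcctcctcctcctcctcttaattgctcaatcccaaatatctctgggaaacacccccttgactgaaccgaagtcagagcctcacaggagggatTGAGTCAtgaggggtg
Dmkn, chr7:30763616-30763765: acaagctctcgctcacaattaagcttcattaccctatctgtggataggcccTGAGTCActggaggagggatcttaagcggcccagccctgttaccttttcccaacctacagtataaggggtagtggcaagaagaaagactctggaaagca
Dmkn, downstream start, chr7:30776265-30776414: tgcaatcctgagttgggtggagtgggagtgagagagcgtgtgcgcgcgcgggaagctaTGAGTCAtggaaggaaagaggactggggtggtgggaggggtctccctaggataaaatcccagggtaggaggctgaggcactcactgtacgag
Krtdap, chr7:30787765-30787914: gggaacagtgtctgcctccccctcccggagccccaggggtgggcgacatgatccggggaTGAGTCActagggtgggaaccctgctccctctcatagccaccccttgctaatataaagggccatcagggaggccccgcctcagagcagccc

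Each of these windows held the motif once on the plus strand. It lay 82 bases before the first Dmkn start, 75 bases before the downstream Dmkn start and 74 bases before the Krtdap start, and it overlapped the Sbsn start. Searched on both strands as TGAGTCA or TGACTCA, the motif was in 942 of 32851 RefSeq windows of the same length (2.87%). The windows of Akr1c18 and Dact2 did not hold these letters. The motif was chosen after the sequences had been read, a match is a description and not a bound site, and no measurement of factor binding was made. Neighbours outside the trio had like levels in the 3 populations. Tmem147 had mean levels of 105, 93.5 and 102 CPM in Krtdap-set, Sfrp4-set and other gated fibroblasts. Cox6b1 had 421, 402 and 410 CPM, and Gapdhs and Ffar2, which flank the trio, had no UMI in the members, which allows up to 0.213 CPM in young and 2.38 CPM in aged members at 3 UMIs over both libraries.

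The rule fixed the markers' levels in the members, so they are given as a description and without a test. Krtdap stood at 936 and 1008 CPM in young and 1252 and 1261 CPM in aged members, with means of 132 CPM in other gated fibroblasts and 136 CPM in the Sfrp4 set. Sbsn stood at 867 and 895 CPM in young and 714 and 710 CPM in aged members, against 126 and 150 CPM in the other populations. For Dmkn the values were 682 and 726 CPM in young and 850 and 816 CPM in aged members, and 121 and 59.5 CPM elsewhere. Each of the 3 was higher in the members than in either neighbour in all 4 libraries.

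**Figure D1:**
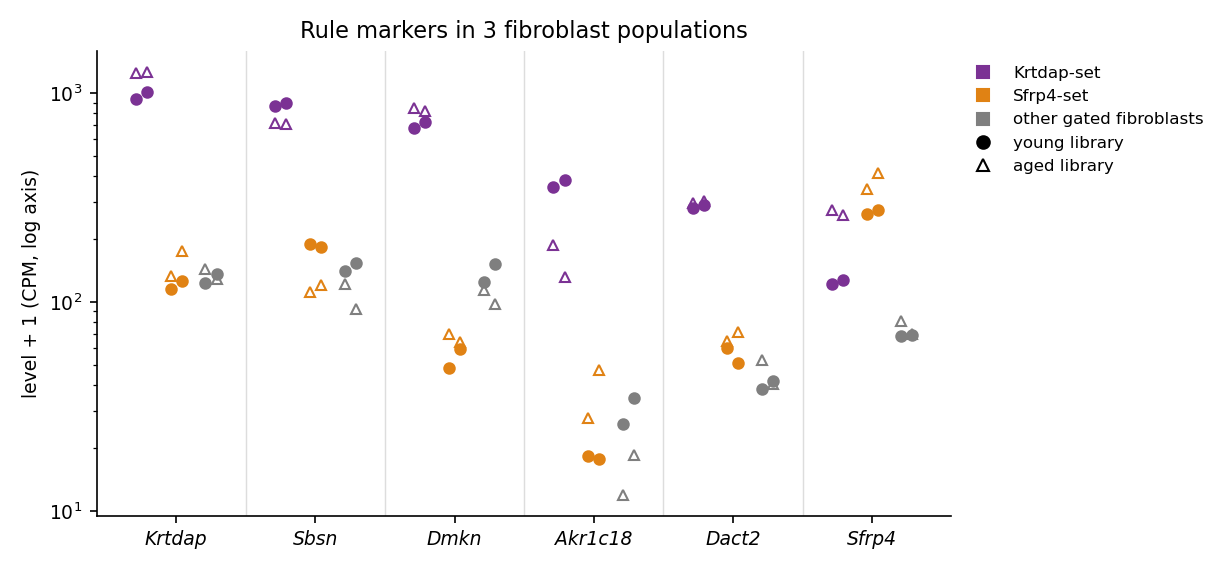
Levels of the 5 rule markers and of Sfrp4 (CPM plus 1, logarithmic axis) in Krtdap-set, Sfrp4-set and other gated fibroblasts, 1 point per library (filled circles young, open triangles aged). The 5 markers are high in the Krtdap set because the rule chose it by them; aged points of Akr1c18 lie below the young ones in the Krtdap set.

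Akr1c18 (chr13:4132615-4150654) was lower in aged members, at 354 and 383 CPM in young against 187 and 131 CPM in aged libraries. Dact2 (chr17:14195052-14204304) was nearly level, at 282 and 289 against 296 and 304 CPM. Sfrp4, a marker of the other set, was higher in aged members, at 274 and 259 CPM against 121 and 126 CPM. The 3 collagens of the gate were lower in aged members: Col1a1 stood at 2785 and 2923 CPM in young and 1069 and 1048 CPM in aged libraries, and Col3a1 at 5270 and 5050 against 1816 and 1870 CPM.

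Each rule marker was also looked at in cells picked without it, as a description of the set that chose the members. Krtdap was detected in 93.2% of the 710 gated cells that held at least 3 of the 4 remaining markers and, by these alone, more markers than of the Sfrp4 set. Among the 9245 gated cells with 0 or 1 of the remaining markers it was detected in 7.73%. The first group was the deeper one, with a median of 8492.5 against 6283 UMIs, and the part of depth in these shares was not tested. For Sbsn the shares were 95.8% and 18.5%, for Dmkn 80.7% and 5.29%, for Dact2 71.4% and 10.0%, and for Akr1c18 52.8% and 1.84%. All of these pool the libraries, and most cells of the first group were young. By library, its Akr1c18 share was 54.3% of 409 and 58.7% of 535 young cells. In the aged libraries it was 28.6% of 35 and 20.2% of 89 cells. Of the 1742 members, 977 (56.1%) held all 5 markers, 547 held 4 and 218 held 3. Just outside the rule lay 235 cells with 2 markers, otherwise alike in gate and order, and 300 with 1.

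The border with the Sfrp4 set was less sharp. Only 25 members held none of the 5 Sfrp4-set markers, while 706 held 3 and 490 held 4 of them. A further 865 gated cells had at least 3 markers of each set in equal number and so belonged to neither, and 507 had at least 3 Krtdap-set markers but more of the Sfrp4 set. The first group numbered 311 and 344 in young and 90 and 120 in aged libraries, the second 147 and 153 against 89 and 118. Beside them stood 694 and 869 young but 61 and 118 aged members. The age comparison below therefore leaves out a larger part of such cells in aged libraries.

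Members made up a larger part of the gated fibroblasts in young than in aged capsules. They were 15.7% (exact 95% binomial interval 14.7% to 16.8%) and 17.4% (16.3% to 18.4%) in the young libraries. In the aged libraries they were 4.56% (3.50% to 5.82%) and 5.26% (4.38% to 6.27%). The young mean of 16.5% ± 1.15 (SD, n = 2) was 3.37 times the aged mean of 4.91% ± 0.498 (SD, n = 2), and the libraries of the 2 ages did not overlap. Intervals cover counting error only, and no test was made, since the smallest p that an exact permutation test allows with 2 libraries per age is 0.333. Fewer cells of this kind and less marker RNA per cell cannot be told apart by such a share.

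The size of that difference depended on how the border was drawn. Sfrp4-set cells were 20.4% and 18.5% of gated fibroblasts in young and 41.2% and 34.5% in aged libraries, and cells that carry both sets of markers pass to one side or the other by their count. With the Krtdap-set markers alone deciding, an alternative added after seeing the data, the shares were 26.1% and 27.3% in young and 17.9% and 15.9% in aged libraries, a ratio of 1.58. After each cell had been thinned to 2000 UMIs, the shares were 12.9% and 15.1% against 5.07% and 5.35%, a ratio of 2.69. Thinning left out gated cells with fewer UMIs, 338 and 656 in young and 40 and 88 in aged libraries, among them 14, 20, 0 and 3 members.

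**Figure D2:**
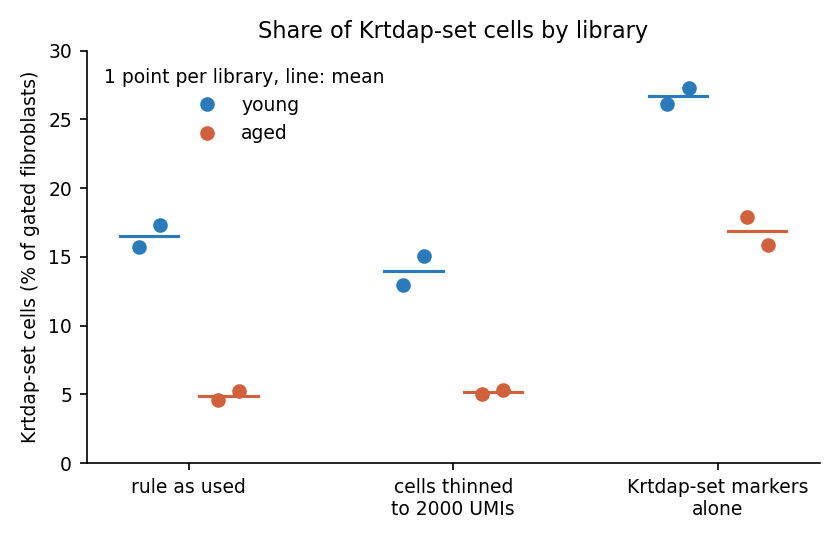
Krtdap-set cells as a percentage of gated fibroblasts, 1 point per library with the mean of each age as a line, under the rule as used, after thinning every cell to 2000 UMIs, and with the Krtdap-set markers alone deciding. Young points lie above aged points in each case; the ratio of the means falls from 3.37 to 2.69 and 1.58.

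Beside other gated fibroblasts, the genes outside the rule that stood highest in the members were those of secreted signals, adventitial genes and a claudin. These ratios come from the contrast the rule was built on, so they are descriptions without a test, and genes were named by the size of the ratio among those with the same direction in all 4 libraries. Wnt2, a Wnt ligand, averaged 116 CPM in members, 17.4 CPM in other gated fibroblasts and 24.8 CPM in the Sfrp4 set. Bmp7 and Bmp3, a BMP ligand and a BMP family member that opposes BMP signalling, averaged 96.4 and 95.3 CPM in members. In other gated fibroblasts they averaged 15.2 and 16.2 CPM, and in the Sfrp4 set 26.9 and 25.8 CPM. Bmp6, another BMP gene, averaged 61.9 against 13.5 CPM in other gated fibroblasts.

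Igfbp5, which encodes a binding protein for insulin-like growth factors, stood at 6251 and 6628 CPM in young and 7444 and 8425 CPM in aged members, against means of 1700 CPM in other gated fibroblasts and 2061 CPM in the Sfrp4 set. Cldn3, which encodes a tight junction claudin usual in epithelia, averaged 84.6 CPM in members and 14.1 and 15.0 CPM in the other populations. Its transcript was found in 250 of 694 and 293 of 869 young and in 33 of 61 and 51 of 118 aged members, with no more than 7 UMIs in any cell. Thy1, a surface glycoprotein of many fibroblasts, averaged 236 against 40.4 CPM in other gated fibroblasts, Sema3c, a secreted semaphorin, 1203 against 293 CPM, and the complement regulator Cd55 766 against 202 CPM. Ackr2, a receptor that removes inflammatory chemokines, averaged 86.7 against 22.8 CPM.

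Single genes also stood apart from the Sfrp4 set, while the chemokine and cytokine list as a whole summed to between 2391 and 3427 CPM in members and between 2297 and 3226 CPM in that set. The cytokine gene Il34, a ligand of the macrophage growth factor receptor, averaged 67.3 CPM in members and 10.8 CPM in the Sfrp4 set. Tnfrsf11b, the decoy receptor osteoprotegerin, averaged 77.2 and 26.6 CPM, and the alarmin Il33 199 and 90.7 CPM. Lower in members were genes of steroid and amine metabolism: the oestrogen sulfotransferase Sult1e1 averaged 26.6 against 331 CPM, the methyltransferase Inmt 45.1 against 374 CPM and the glucocorticoid-activating enzyme Hsd11b1 9.03 against 59.3 CPM. Penk, the precursor of enkephalins, averaged 78.7 against 511 CPM. Slpi, a secreted protease inhibitor, averaged 249.6 against 11.9 CPM but came from few cells, and in other gated fibroblasts it averaged 987.6 CPM. It was seen in 29, 56, 1 and 1 members of the 4 libraries, and in aged replicate 2 all 307 UMIs were in 1 cell.

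Genes far lower in the members than in other gated fibroblasts included several of cartilage and tendon matrix. Mgp (matrix Gla protein) averaged 87.5 CPM in members and 2665 CPM in other gated fibroblasts, Cilp 19.3 against 556 CPM, the proteoglycan gene Fmod 12.9 against 309 CPM, and the chemokine Cxcl14 0.493 against 90.1 CPM. The complement gene C7 averaged 10.5 CPM in members, 259 CPM in other gated fibroblasts and 83.1 CPM in the Sfrp4 set.

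**Figure D3:**
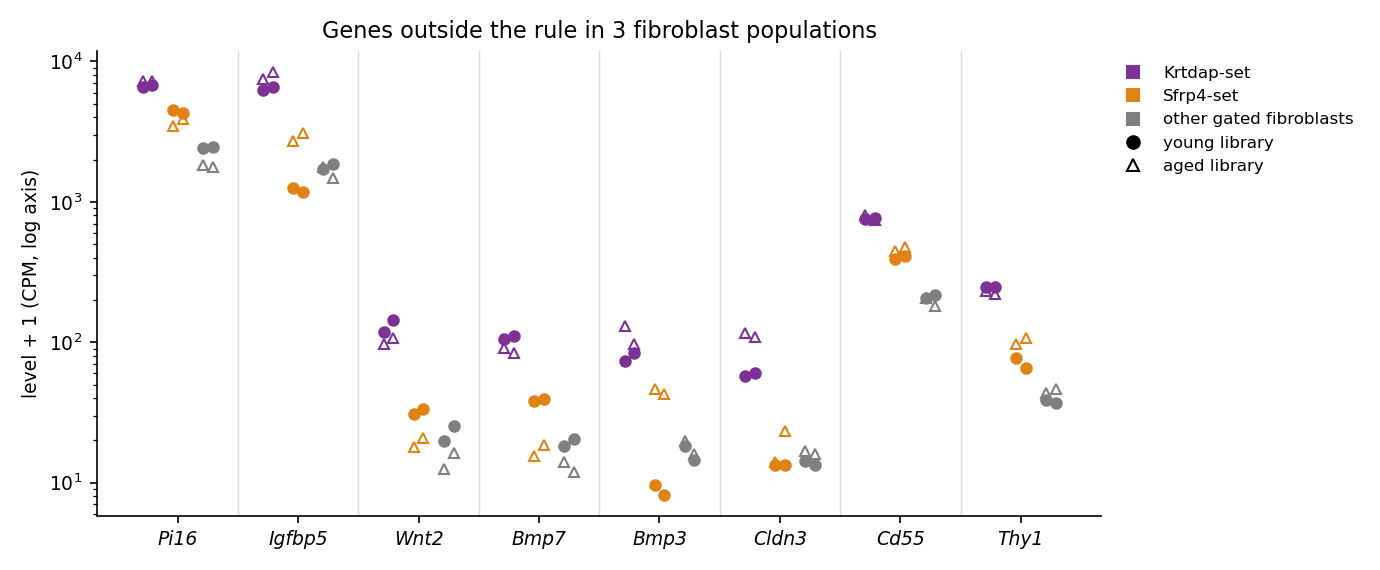
Levels of 8 genes outside the rule (CPM plus 1, logarithmic axis) in the 3 fibroblast populations, 1 point per library (filled circles young, open triangles aged). In each gene the Krtdap-set points lie above those of other gated fibroblasts; the lowest Krtdap-set points of Pi16 and Igfbp5 are 6616 and 6251 CPM.

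Levels of Wnt2, Bmp7, Pi16, Cd55, Sema3c, Thy1, Efhd1, Ackr2 and Aif1l stood higher with each further rule marker detected. These classes are drawn by the rule's own markers, so the levels are given as a description without a test. Each class had to hold more Krtdap-set than Sfrp4-set markers. Cells with 1 marker therefore held none of the Sfrp4 set, while those with 5 could hold up to 4. The part of this limit in the levels was not tested. Summed over the libraries, Pi16 stood at 498 and 748 CPM in the cells just outside the rule with 1 and 2 markers, and at 4869, 6683 and 7129 CPM in members with 3, 4 and 5. Wnt2 followed with 5.36, 12.6, 36.7, 91.8 and 160 CPM, and Thy1 with 12.3, 29.0, 67.4, 171 and 309 CPM. Mgp fell off in the same order, from 2847 and 1121 CPM outside the rule to 436, 156 and 61.1 CPM within it. Igfbp5 broke the order, at 3084 and 6014 CPM with 1 and 2 markers and 2803, 4853 and 7996 CPM with 3, 4 and 5. So did Cldn3, at 40.2, 62.1, 25.5, 55.3 and 71.5 CPM, and Bmp3, at 16.6, 2.33, 21.6, 47.0 and 106 CPM. Depth ran along with marker number: the median UMI count was 5373.5 with 1 marker, 7892 with 2, 6899.5 with 3, 7828 with 4 and 9465 with 5, and its part in these levels was not tested.

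The age comparison asked what differed in these fibroblasts between young and aged capsules. Of 11634 genes tested by edgeR's quasi-likelihood test on member UMIs summed per library, 507 (4.36%) passed an adjusted p of 0.05. Of these 261 (2.24%) were higher and 246 (2.11%) lower in aged members, and 219 differed by more than 2-fold. The median log2 change over all tested genes was -0.02. In each of the 507 the libraries of the 2 ages did not overlap, which held for 53.6% of all tested genes (23.5% with aged higher, 30.1% with aged lower). Percentages of 2.24 and 2.11 are the background against which each list below is read. Outside the naming rule, H2-K1, B2m, Tapbp, Ccl11, C1s1, Ifitm3, Trim30a, Cldn3, Nectin3, Vcam1, Igfbp4, Cdkn1c, Stmn1, Ccnd2 and mt-Co1 were chosen after their values had been seen.

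Of 28 fibrillar collagen and elastic matrix genes tested outside the rule, 11 fell and 1 rose, with a median log2 change of -0.25. Postn (chr3:54361109-54391037), which encodes the matricellular protein periostin, stood at 428 and 409 CPM in young and 52.0 and 52.6 CPM in aged members. That is a log2 change of -2.98 ± 0.13 (SE; edgeR adjusted p = 3.3e-06). Both aged libraries lay far below both young ones. Sparc (chr11:55394500-55423183), a collagen-binding glycoprotein, stood at 7670 and 8258 against 2627 and 2841 CPM (log2 change -1.52 ± 0.09, edgeR adjusted p = 1.2e-05). The minor fibrillar collagen gene Col5a1 stood at 475 and 461 against 205 and 230 CPM, and the microfibril collagen Col6a1 at 641 and 636 against 301 and 346 CPM. Their log2 changes were -1.08 ± 0.10 and -0.95 ± 0.10 (edgeR adjusted p = 0.00024 and 0.00041). Fbn1, which encodes the microfibril protein fibrillin, fell from 3722 and 3801 to 2104 and 2454 CPM, a log2 change of -0.70 ± 0.09 (edgeR adjusted p = 0.0020). Thbs2, a thrombospondin that restrains vessel growth and fibril width, was the one that rose, from 56.9 and 48.2 to 100 and 98.1 CPM. Elastin transcript did not pass: Eln stood at 178 and 166 in young and 104 and 175 CPM in aged members.

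Of 29 genes for enzymes and chaperones that fold, trim and cross-link collagen, 7 passed, all of these lower, with a median of -0.27 over the list. Loxl2, a lysyl oxidase that cross-links collagen, stood at 205 and 195 against 89.7 and 83.9 CPM (log2 change -1.19 ± 0.12, edgeR adjusted p = 0.00046). Adamts2, a procollagen N-proteinase, stood at 364 and 367 against 172 and 192 CPM, and Serpinh1, the collagen chaperone HSP47, at 1224 and 1280 against 757 and 846 CPM. Of 20 basement membrane genes 5 passed, all lower, among them the laminin gene Lamc1, at 651 and 610 against 307 and 317 CPM (log2 change -0.99, edgeR adjusted p = 0.00029).

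Small proteoglycans were split. Of 11, 3 fell (Aspn, Podn and Lum) and 1 rose. Bgn, which encodes biglycan, rose from 148 and 133 to 266 and 346 CPM (log2 change 1.15 ± 0.12, edgeR adjusted p = 0.00062). Aspn (asporin) stood at 180 and 200 against 52.0 and 88.2 CPM. Without aged replicate 2, Lum and Podn no longer passed, with log2 changes of -0.34 and -0.92, and Podn did not pass without aged replicate 1 either (-1.15). Among 31 matrix proteases and their inhibitors 3 passed, all higher. Serpine2, which inhibits thrombin and urokinase, stood at 24.4 and 25.8 CPM in young and 111 and 79.6 CPM in aged members (log2 change 1.93 ± 0.18, edgeR adjusted p = 0.00029). Adamts5, an aggrecan-cleaving protease, stood at 1592 and 1429 against 1948 and 2008 CPM. Mmp3, stromelysin, rested on 3 cells in each aged library and passed only with all 4 libraries: the log2 change of 4.20 became 3.45 without young replicate 1, 6.27 without young replicate 2, 4.18 without aged replicate 1 and 4.25 without aged replicate 2.

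**Figure D4:**
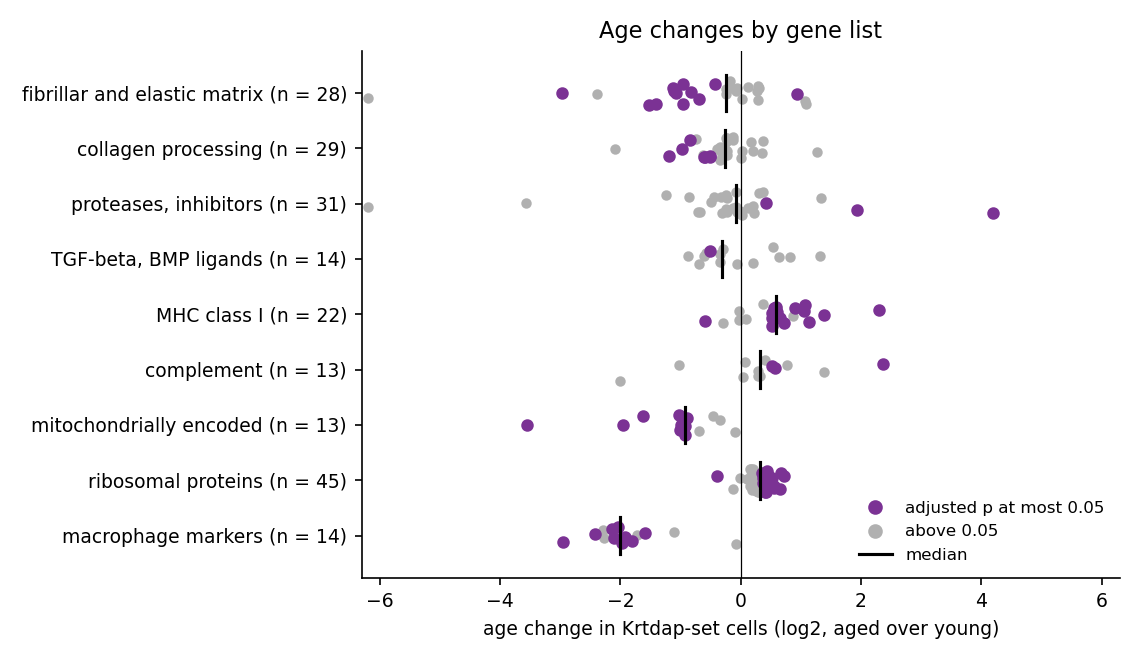
Log2 age change (aged over young) in Krtdap-set fibroblasts for each tested gene of 9 lists, 1 point per gene, with genes past an edgeR adjusted p of 0.05 in purple and the median as a vertical bar. Fibrillar matrix (median -0.25) and mitochondrially encoded genes (-0.93) sit to the left and MHC class I genes (0.59) to the right; genes without a UMI in aged members are drawn at the left edge, and their position there is not a size.

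Chemokine and complement genes were among those that rose. Of 21 chemokine and cytokine genes 3 passed, all higher. Ccl11 (eotaxin), an eosinophil attractant, rose from 670 and 634 to 1191 and 1021 CPM (log2 change 0.78 ± 0.10, edgeR adjusted p = 0.0017). Cxcl12, a ligand for CXCR4 on leukocytes and stem cells, rose from 69.0 and 57.8 to 135 and 117 CPM (log2 change 1.00 ± 0.15, edgeR adjusted p = 0.0050). After thinning it no longer passed (0.84). Of 13 complement genes 3 passed, all higher. C4b was at 28.4 and 23.2 against 118 and 141 CPM (log2 change 2.37 ± 0.17, edgeR adjusted p = 3.9e-05). C1s1 stood at 552 and 442 against 721 and 687 CPM.

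The MHC class I list held 22 tested genes, of which 14 rose and 1 fell, with a median log2 change of 0.59. H2-K1, a class I heavy chain, stood at 1145 and 953 in young and 1810 and 1601 CPM in aged members (log2 change 0.72 ± 0.11, edgeR adjusted p = 0.0050). The immunoproteasome gene Psmb8 stood at 185 and 184 against 343 and 412 CPM, and B2m, the shared light chain, at 1574 and 1275 against 2201 and 1908 CPM. The peptide loading factor Tapbp fell, from 302 and 290 to 170 and 212 CPM. Immune cells carry the same transcripts. In Ptprc-positive barcodes of these libraries the level of H2-K1 was 121% and that of Psmb8 190% of the members' level. For C4b it was 321%. Each such share, here and below, compares mean levels within the age in which the members' level was higher. Over all 507 genes, 300 had a level in those barcodes of at least 20% of the members' level. Of all 11634 genes tested, 1811 lay below that share, and 207 of these were among the 507. The part of free RNA in these changes was not tested.

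Of 36 interferon-stimulated genes 4 rose and 1 fell, with a median of -0.14. Ifitm3, a membrane antiviral factor, stood at 1917 and 1894 against 2648 and 2997 CPM (log2 change 0.59 ± 0.09, edgeR adjusted p = 0.0041), while Trim30a fell from 114 and 109 to 62.8 and 76.8 CPM.

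Wnt signals were described by role. Wnt2, the ligand by which members stood highest over other gated fibroblasts, was at 117 and 142 CPM in young and 96.9 and 107 CPM in aged members and did not pass (log2 change -0.32, edgeR adjusted p = 0.27). Wnt5a, a ligand of the non-canonical branch, was the only one of 9 ligands and R-spondins past the threshold. It fell from 190 and 176 to 108 and 105 CPM (log2 change -0.76 ± 0.12, edgeR adjusted p = 0.0061), but did not pass after thinning (-0.62). Of 13 Wnt receptors 0 passed by edgeR and 0 by DESeq2, with 4 at an unadjusted p under 0.05. Of 12 inhibitors outside the rule 1 passed: Dkk2, which blocks the LRP co-receptors, was at 41.5 and 49.1 against 7.18 and 9.95 CPM (log2 change -2.35 ± 0.30, edgeR adjusted p = 0.0019). Among 12 targets and nuclear factors Ccnd1, the gene of cyclin D1, rose from 23.6 and 25.2 to 43.1 and 52.6 CPM. Its log2 change of 1.00 became 0.84 and did not pass without aged replicate 2.

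BMP and TGF-beta genes that mark the members did not pass between the ages. Bmp7 was at 104 and 109 in young and 89.7 and 82.5 CPM in aged members (log2 change -0.29, edgeR adjusted p = 0.25), and Bmp3 at 73.0 and 82.3 against 129 and 96.7 CPM (0.54, edgeR adjusted p = 0.087). Of 14 genes in the ligand list only Bmp1, which despite its name encodes a procollagen C-proteinase, fell (log2 change -0.51). Of 28 receptors, inhibitors and targets 2 rose and 2 fell. Chrdl1, which binds and blocks BMPs, rose from 32.2 and 28.0 to 78.9 and 83.9 CPM (log2 change 1.47 ± 0.17, edgeR adjusted p = 0.00082). Fst, the activin inhibitor follistatin, fell from 275 and 272 to 149 and 178 CPM (-0.71 ± 0.11, edgeR adjusted p = 0.0052). Id3, a BMP target, rose by 0.77 on the log2 scale, a call that ended without aged replicate 1 (0.39).

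Genes of steroid metabolism are read beside 2.11% lower over all genes tested. Of 18 aldo-keto reductase and steroid genes outside the rule 2 passed, both lower: Srd5a1, a steroid 5-alpha-reductase, from 40.0 and 39.2 to 14.4 and 17.1 CPM, and Akr1c21, which is abundant in kidney tubule, from 20.96 and 49.0 to 0 and 1.42 CPM. The Akr1c21 call ended without aged replicate 1 (-4.61) or aged replicate 2 (-10.43, with no UMI left in aged members). Akr1c14, a relative of Akr1c18, was at 17.2 and 16.9 against 7.18 and 7.11 CPM and did not pass (edgeR adjusted p = 0.089). Aldh1a3, which makes retinoic acid, rose by 0.49 on the log2 scale, with the call lost without young replicate 1 (0.43) or aged replicate 1 (0.33).

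Of 20 junction genes Cldn3 rose and Nectin3 fell. Cldn3 was at 56.6 and 59.0 in young and 115 and 108 CPM in aged members (log2 change 0.97 ± 0.13, edgeR adjusted p = 0.0030), so that a transcript by which the members stood out was higher still in aged ones. After thinning its change was 0.64 and did not pass. Nectin3, an adhesion molecule, was at 68.4 and 77.1 against 37.7 and 32.7 CPM.

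Of 20 adventitial identity genes 1 rose and 3 fell, with a median of -0.01, beside 2.24% higher and 2.11% lower over all genes tested. Pi16, a peptidase inhibitor gene, was at 6616 and 6826 in young and 7314 and 7260 CPM in aged members (log2 change 0.14, edgeR adjusted p = 0.38), and the peptidase gene Dpp4 at 475 and 439 against 497 and 508 CPM. Dpt (dermatopontin) fell from 2036 and 2054 to 1231 and 1125 CPM (log2 change -0.77 ± 0.09, edgeR adjusted p = 0.00085), and Ly6c1 rose from 903 and 918 to 1364 and 1257 CPM. Of 35 stromal and positional transcription factors 0 passed by edgeR and 0 by DESeq2, with 10 at an unadjusted p under 0.05. Osr1, an early kidney mesoderm factor, was at 373 and 345 against 493 and 410 CPM, and Hoxc9 at 74.7 and 74.4 against 100 and 83.9 CPM.

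Of 19 senescence and cell cycle inhibitor genes 5 rose and 1 fell. Cdkn1a (chr17:29090976-29100727), which encodes the cyclin-dependent kinase inhibitor p21, was at 96.6 and 94.5 in young and 215 and 206 CPM in aged members (log2 change 1.16 ± 0.11, edgeR adjusted p = 0.00023). It was found in 231 of 694 and 314 of 869 young and in 24 of 61 and 38 of 118 aged members. With the Krtdap-set markers alone deciding, the change was 0.47, and after thinning it was 0.62 and did not pass. Cdkn2c rose by 1.22 and Igfbp4 by 0.55 on the log2 scale, and Igfbp3 fell from 60.7 and 50.6 to 19.7 and 12.8 CPM. Cdkn2a, the gene of p16, had too few UMIs to be tested.

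Of 26 cell cycle genes 7 fell and 1 rose, the latter Ccnd1. Mki67 had 263 UMIs in young and 0 in aged members, which makes it at least 7.86-fold lower, and Cenpf, with 276 and 0 UMIs, was at least 8.25-fold lower. These bounds set the aged level at 3 UMIs over both libraries. Top2a was at 33.7 and 19.3 against 0 and 1.42 CPM, a call that ended without aged replicate 1 (-4.18) or aged replicate 2 (-10.00, with no UMI left), and Stmn1 at 77.6 and 56.8 against 5.38 and 11.4 CPM. Ccnd2 fell by 0.51 on the log2 scale. The median log2 change of the list was -1.93, or -1.65 with genes absent from aged members at their bounds. In Ptprc-positive barcodes of the young libraries Mki67 stood at 241% and Stmn1 at 185% of the young member level, and the part of free RNA was not tested.

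Of 14 growth-related imprinted genes 6 fell and 1 rose, with a median of -0.82. Meg3 (chr12:109541001-109571726), a maternally expressed long non-coding RNA, was at 499 and 515 in young and 147 and 135 CPM in aged members (log2 change -1.83 ± 0.11, edgeR adjusted p = 1.2e-05). Rian, transcribed from the same imprinted cluster, was at 132 and 128 against 30.5 and 35.5 CPM. H19 had 210 UMIs in young and 0 in aged members, at least 6.28-fold lower. Cdkn1c, a growth-restraining imprinted gene that also counts among the cell cycle inhibitors, rose from 572 and 675 to 911 and 776 CPM.

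Growth factor genes outside those families moved both ways, 2 up and 3 down of 25. Vegfd, a lymphangiogenic factor, rose from 124 and 98.7 to 271 and 188 CPM (log2 change 1.05 ± 0.17, edgeR adjusted p = 0.0081), and Igf1 fell from 120 and 123 to 59.2 and 38.4 CPM (-1.32 ± 0.18, edgeR adjusted p = 0.0025). Angptl1 fell from 49.0 and 51.5 to 5.38 and 14.2 CPM. Of 17 adhesion genes Vcam1 rose, from 40.5 and 35.9 to 71.8 and 71.1 CPM.

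Of 13 mitochondrially encoded genes 9 passed, all lower (median -0.93), among them mt-Co1, at 645 and 639 against 316 and 319 CPM (log2 change -0.99 ± 0.09, edgeR adjusted p = 0.00022). The median mitochondrial share of UMIs per member was 2.48% and 2.45% in young and 1.32% and 1.51% in aged libraries. Of 38 nuclear genes of oxidative phosphorylation 4 passed, all higher. Of 45 ribosomal protein genes 17 rose and 1 fell (median 0.31), with Rpl10 at 1853 and 1770 against 3046 and 2596 CPM. The part of the mitochondrial share in other changes was not tested. Of 18 heat shock genes 0 passed by edgeR and 0 by DESeq2, with 3 at an unadjusted p under 0.05, 2 of 22 folding genes fell, among them Hspa5 (BiP), and 4 of 24 immediate early genes fell.

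The largest rises outside the rule included unplaced or duplicated genes. C130026I21Rik, Gm7609 and A530032D15Rik lie within 278 kb on chromosome 1 (84992690 to 85270566), in a family of near-identical copies, so their values are uncertain. C130026I21Rik was at 2.68 and 0.519 in young and 158 and 205 CPM in aged members. AC168977.1, on an unplaced scaffold, had 0 UMIs in young and 118 in aged members, at least 439-fold higher. It too has near-identical copies.

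Among placed genes, the clock-controlled pair Dbp and Nr1d1 rose together. Dbp was at 8.51 and 7.52 against 35.9 and 37.0 CPM (log2 change 2.21 ± 0.26, edgeR adjusted p = 0.0012) and Nr1d1 at 10.6 and 11.8 against 46.6 and 54.0 CPM (2.20 ± 0.23, edgeR adjusted p = 0.00045). Snhg11, a small nucleolar RNA host gene annotated as protein-coding, was at 2.99 and 3.24 against 46.6 and 56.9 CPM. Gap43, a growth-associated protein of neurites, was at 85.3 and 92.1 against 5.38 and 0 CPM (log2 change -5.18 ± 0.44, edgeR adjusted p = 0.00014). Adh7, an alcohol dehydrogenase that oxidises retinol, rose by 2.67 on the log2 scale, a call that ended without aged replicate 1 (1.89).

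Transcripts of other cell types moved with age in the members, and those values stand beside the results above. Of 14 macrophage markers 9 passed, all lower, and their summed level was 717 and 965 CPM in young and 181 and 256 CPM in aged members. Tubule markers summed to 834 and 1806 against 364 and 370 CPM, and 5 of 14 fell. B and plasma cell markers summed to 21.6 and 17.8 against 133 and 496 CPM, most of it Igkc, which was at 3.15 and 3.63 against 113 and 360 CPM and stood at 9350% of the member level in Ptprc-positive barcodes. Mesothelial markers were uneven, at 197 and 270 in young and 113 and 383 CPM in aged members, with 0 of 14 called by edgeR or DESeq2 and 2 at an unadjusted p under 0.05.

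Members with at least 3 macrophage, mesothelial or tubule markers numbered 139 and 156 in young and 7 and 9 in aged libraries. Without them, an alternative added after seeing the data, 711 genes passed, 463 of which were among the 507. Postn then changed by -2.96, Sparc by -1.57, Bgn by 1.14 and Cdkn1a by 1.10 on the log2 scale. The macrophage gene Pf4, by contrast, changed by -1.40 and no longer passed, against -2.96 with all members. The tubule gene Kap, of which 572 of 1116 UMIs in young replicate 1 lay in 1 cell, changed by -1.67 against -3.97, and Gpx3, a secreted peroxidase made by tubules, by -0.64 against -2.03.

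Most age changes of the members were shared with the neighbouring populations. Of the 507 genes, 410 were also called in the same direction in Sfrp4-set cells and 2 in the opposite one, and 357 and 5 in other gated fibroblasts. Those populations hold more cells and had 17.8% (9.12% higher, 8.70% lower) and 18.1% (8.23% higher, 9.85% lower) of tested genes called, and all comparisons use cells of the same 4 libraries. Where the members differed was tested directly, as the difference between 2 age changes with library as a block. Against the Sfrp4 set 140 of 13427 genes (1.04%) had an age change that differed, 50 higher (0.372%) and 90 lower (0.670%) in the members. Against other gated fibroblasts 177 of 14176 (1.25%) did, 82 higher (0.578%) and 95 lower (0.670%). The counts of 140 and 177 depended on the processing. They became 39 and 106 by DESeq2, 31 and 199 with at least 4 rule markers, and 2 and 63 after thinning to 2000 UMIs. The genes in the paragraphs that follow were chosen after their values had been seen.

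Cxcl12 and Apod had smaller age changes in the members than in their neighbours. Cxcl12 (chr6:117168535-117181367) went from 88.1 to 411 CPM on average in the Sfrp4 set and from 167 to 887 CPM in other gated fibroblasts, against 63.4 to 126 CPM in the members. The difference of log2 changes was -1.23 ± 0.13 against the Sfrp4 set (edgeR adjusted p = 1.3e-06) and -1.41 ± 0.13 against other gated fibroblasts (edgeR adjusted p = 1.8e-06). Apod, a lipid-binding lipocalin, was at 51.9 and 54.6 in young and 82.5 and 62.6 CPM in aged members and did not pass there. It went from 79.1 to 328 CPM in the Sfrp4 set and from 189 to 940 CPM in other gated fibroblasts, with differences of -1.62 ± 0.15 and -1.87 ± 0.15 (edgeR adjusted p = 2.5e-07 in each case). Aged levels of both genes in the members were lower than in either neighbour in every library.

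Postn fell further in the members. In the Sfrp4 set it averaged 483 CPM in young and 144 CPM in aged, and in other gated fibroblasts 185 and 60.8 CPM, so that the differences were -1.26 ± 0.17 and -1.37 ± 0.17 (edgeR adjusted p = 4.4e-05 and 5.9e-05). Young members lay above other gated fibroblasts in both libraries, and aged members, at 52.0 and 52.6 CPM, lay below them. Sparc, by contrast, fell less, by differences of 0.31 ± 0.06 and 0.63 ± 0.09 (edgeR adjusted p = 0.0019 and 0.00060). These calls ended without young replicate 2 against the Sfrp4 set (0.31) and without young replicate 1 against other gated fibroblasts (0.52).

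Pi16, Igfbp6 and Eln were lower in aged cells of the other populations and did not pass in the members. Pi16 averaged 4404 CPM in young and 3671 CPM in aged Sfrp4-set cells and 2443 and 1790 CPM in other gated fibroblasts. The differences were 0.38 ± 0.06 and 0.58 ± 0.09 (edgeR adjusted p = 0.0015 and 0.00081), and the second call ended without young replicate 1 or 2 (0.52 each). Igfbp6, a binding protein for IGF2, was at 5143 and 5617 in young and 5119 and 5386 CPM in aged members. In other gated fibroblasts it averaged 4645 and 2767 CPM, a difference of 0.73 ± 0.09 (edgeR adjusted p = 6.6e-05), and against the Sfrp4 set the difference was 0.37 ± 0.07 (edgeR adjusted p = 0.0020). Eln averaged 306 and 109 CPM in the Sfrp4 set and 295 and 98.0 CPM in other gated fibroblasts. The differences of 1.21 ± 0.16 and 1.34 ± 0.17 (edgeR adjusted p = 4.4e-05 and 9.6e-05) fell to 0.72 each and did not pass without aged replicate 2.

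Cdkn1a and Bgn rose more in the members. Cdkn1a averaged 98.6 and 132 CPM in the Sfrp4 set and 103 and 143 CPM in other gated fibroblasts, with differences of 0.74 ± 0.13 and 0.68 ± 0.12 (edgeR adjusted p = 0.0020 and 0.0018). Both ended when the Krtdap-set markers alone decided (-0.00 and -0.08), and the first ended without aged replicate 2 (0.53). The second ended without young replicate 2 (0.59), aged replicate 1 (0.58) or aged replicate 2 (0.63). Bgn averaged 345 and 413 CPM in the Sfrp4 set and 632 and 840 CPM in other gated fibroblasts, levels above those of the members at both ages. Its differences were 0.87 ± 0.12 and 0.73 ± 0.11 (edgeR adjusted p = 0.00010 and 0.00081), the second of which ended without aged replicate 2 (0.48).

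Bmp3 and Igfbp5 were closer between the members and Sfrp4-set cells in aged than in young libraries, and Bmp7 was farther apart. Bmp3 averaged 7.93 CPM in young and 43.6 CPM in aged Sfrp4-set cells, a difference of -1.94 ± 0.20 (edgeR adjusted p = 1.3e-06), and Igfbp5 averaged 1214 and 2909 CPM, a difference of -0.97 ± 0.06 (edgeR adjusted p = 1.1e-10). Bmp7 went the other way, from 37.8 to 16.04 CPM in the Sfrp4 set, a difference of 0.91 ± 0.20 (edgeR adjusted p = 0.014) that ended without aged replicate 1 (0.71). Each of these genes was higher in the members than in Sfrp4-set cells in all 4 libraries.

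**Figure D5:**
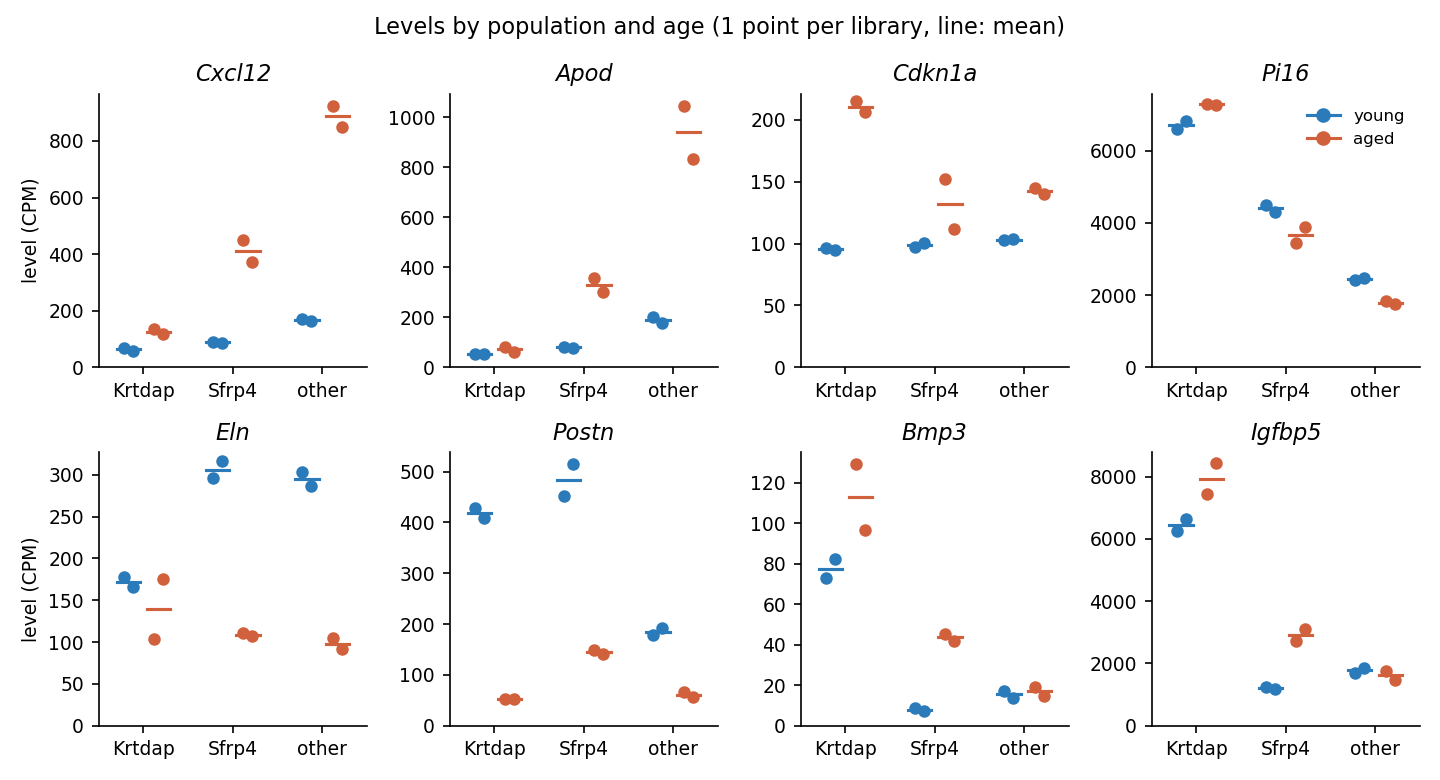
Levels (CPM) of 8 genes in Krtdap-set, Sfrp4-set and other gated fibroblasts, 1 point per library with the mean of each age as a line (blue young, orange aged). Aged Cxcl12 and Apod points lie far above the young ones in the Sfrp4 and other sets and less far above them in the Krtdap set. Pi16 and Eln fall in the other populations, and Igfbp5 rises in the Sfrp4 set.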

How the data were processed

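Single-cell libraries of renal capsule from 2 young and 2 aged samples were made with a Chromium Next GEM 3' kit (v3.1), per the labels' protocols. The deposited values are raw UMI counts per gene and barcode. Cell Ranger 6.0.2 and GRCm38 are named in the submitters' processing notes, while the file header gives Cell Ranger 6.0.1. No further filter by the authors is named in the labels.

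Counts of member cells were summed per library and tested with edgeR 4.0.16 (R 4.3.3): filterByExpr, TMM, quasi-likelihood test, Benjamini-Hochberg adjustment over all genes tested, threshold 0.05. Differences of age changes between populations were tested as an interaction with library as a block. Doublets were kept, and removing the highest Scrublet scores was an alternative. DESeq2 1.42.0, other filters, gates and marker numbers, thinning to 2000 UMIs and leaving out each library were further alternatives. On simulated data, 47.4% of genes changed 2-fold and 81% of those changed 4-fold were called in the age comparison (11321 genes); for the difference from other gated fibroblasts these were 27.8% and 66.7% (13883 genes).

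Members, lists and tests were chosen with earlier results of these data known. Named genes were the rule genes, the 15 largest rises and 15 largest falls with a mean of at least 20 CPM in the higher age, up to 4 members of each list with the largest changes (any member of the matrix, Wnt, TGF-beta and BMP, aldo-keto reductase and transcription factor lists), members said not to pass, and genes with the largest ratios to other populations. Promoter windows came from RefSeq on GRCm38.p6. 1 gene is not reported here.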

Additional observations from a re-analysis of the deposited data

Results flagged for a closer look

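The age changes that differed between the members and a neighbouring population are given here, as differences of log2 changes (members minus the other population). Each came from edgeR's test of the interaction with Benjamini-Hochberg adjustment. Against the Sfrp4 set 140 genes differed, and against other gated fibroblasts 177.

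Against the Sfrp4 set, the age change was higher in the members for the fibril-associated collagen gene Col12a1 by 3.02 (edgeR adjusted p = 1.9e-06). This rested partly on 1 cell with 20 of the 35 UMIs of aged replicate 2, without which library the difference was 2.21 and did not pass. Prlr, the prolactin receptor, differed by 2.61, with 14 of 15 aged UMIs in 1 cell. The Wnt agonists Rspo3 and Rspo1 differed by 2.25 and 1.29, calls that ended without aged replicate 1 (1.57) and aged replicate 2 (1.08). Rspo1 also belongs to the mesothelial marker list. In members that list summed to 197 and 270 CPM in young and 113 and 383 CPM in aged replicates 1 and 2. The part of mesothelial RNA in the Rspo1 difference was not tested. Smaller differences were those of Zcchc5 (1.77), Dbp (1.67), Ppl (1.47), Rab38 (1.42), Ddit4 (1.32), Eln (1.21), Bmp7 (0.91), Bgn (0.87), Cdkn1a (0.74), Pi16 (0.38), Igfbp6 (0.37) and Sparc (0.31). Of these, the call of Dbp ended without aged replicate 1 (1.38), and that of Ppl without aged replicate 1 (1.30) or 2 (1.59). The calls of Eln (0.72) and Cdkn1a (0.53) ended without aged replicate 2, that of Bmp7 without aged replicate 1 (0.71) and that of Sparc without young replicate 2 (0.31).

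The age change was lower in the members than in the Sfrp4 set for several transcripts of tubule, macrophage and fat cells: Cyp4b1 (-4.55), Fabp4 (-4.41), Ttc36 (-3.84), Akr1c21 (-3.76), Ccl24 (-3.69), Miox (-3.67) and Pf4 (-2.83). Without aged replicate 2 the calls of Cyp4b1 (-8.65), Ttc36 (-5.03), Akr1c21 (-4.25) and Miox (-1.11) ended, and that of Akr1c21 ended also without young replicate 2 (-3.44). Chchd10 differed by -2.80. Among fibroblast genes, the differences were -1.94 for Bmp3, -1.62 for Apod, -1.26 for Postn, -1.23 for Cxcl12 and -0.97 for Igfbp5.

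Against other gated fibroblasts, Myl7, an atrial myosin light chain, differed by 4.46, but all 64 UMIs of aged replicate 2 lay in 1 cell and aged replicate 1 had 0. Col12a1 differed by 2.63, and by 1.45 without aged replicate 2, where it did not pass. Dbp differed by 2.32, Nr1d1 by 1.97 (1.70 and not passed without aged replicate 2), Ccnd1 by 1.96, Angptl7 by 1.83 (1.29 and not passed without aged replicate 1), Zcchc5 by 1.74 and Chrdl1 by 1.73. The BMP antagonist Chrdl1 was at 153 and 131 in young and 124 and 112 CPM in aged other gated fibroblasts. Rspo1, which is also a mesothelial marker, differed by 1.44 (1.06 and not passed without aged replicate 2). Eln differed by 1.34, Serpine2 by 1.17, Igfbp6 by 0.73, Bgn by 0.73, Cdkn1a by 0.68, Sparc by 0.63 and Pi16 by 0.58. The calls of Eln (0.72) and Bgn (0.48) ended without aged replicate 2, that of Sparc without young replicate 1 (0.52) and that of Pi16 without either young library (0.52 both times). The call of Cdkn1a ended without young replicate 2 (0.59), aged replicate 1 (0.58) or aged replicate 2 (0.63). Igfbp5 differed by 0.45, a call that ended without young replicate 1 (0.42), young replicate 2 (0.35) or aged replicate 2 (0.17).

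Lower in the members were Igkc (-4.64), Ighm (-4.00), Cyp4b1 (-3.84), Tmem47 (-3.65), Apod (-1.87), Cxcl12 (-1.41) and Postn (-1.37). The call of Cyp4b1 ended without aged replicate 1 (-3.49) or aged replicate 2 (-9.13). The fitted differences of Ctla2a (-10.58), Lgals2 (-9.08), Acta2 (-8.94) and Thbs1 (-8.60) rest on 0 UMIs in aged members and are no size.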

How the results depend on the processing

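The age comparison called 507 genes. Without a filter on low counts it called 1139, after thinning 192 and with the Krtdap-set markers alone 1598. Of 1811 tested genes with a level in Ptprc-positive barcodes below 20% of the members' level, 207 passed. With 1 library left out, the age comparison lost part of the 507 genes and called others. With the replicate number as a block it called 1111 genes (542 higher, 569 lower), all 507 among them; the numbers are not a known pairing, and the deviations of same-numbered libraries correlated at 0.123 over 11647 genes, from 2 pairs only.

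The difference from the Sfrp4 set, 140 genes, became 39 by DESeq2, 230 without the filter, 31 with at least 4 markers and 227 with at least 2. It became 2 after thinning and 65 without cells holding markers of other cell types. With a library left out, part of the 140 no longer passed and other genes did. The difference from other gated fibroblasts, 177 genes, became 106 by DESeq2, 328 without the filter, 64 with a collagen gate of 1 UMI, 63 after thinning and 587 with the Krtdap-set markers alone, and ran from 75 (without aged replicate 2) to 210. The ratio of shares, 3.37, became 2.69 after thinning and 1.58 with the Krtdap-set markers alone, and 3.14 to 3.63 without 1 library. The Krtdap-set and mixed-cell alternatives were chosen after seeing the data.

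Some single genes changed sign. Against the Sfrp4 set, Prlr gave -6.79 without aged replicate 2 and up to 3.73 without another library, -0.32 with at least 4 markers, -1.21 with a collagen gate of 10 UMIs and -5.07 without mixed cells. Miox gave 0.59 with at least 4 markers, 0.29 without the highest Scrublet scores and 1.79 without mixed cells, Ddit4 -0.12 after thinning and Cdkn1a -0.0044 with the Krtdap-set markers alone. Against other gated fibroblasts, Myl7 gave -7.37 without aged replicate 2 and up to 7.05 without another library, -4.73 with at least 4 markers and -6.42 with a collagen gate of 10 UMIs, Lgals2 0.14 with at least 2 markers, Igkc 0.46 with a collagen gate of 1 UMI and Cdkn1a -0.079 with the Krtdap-set markers alone. The age change of Lgals2 was 0.63 with at least 2 markers. The cause of these changes was not tested. Of 105 named age changes that passed, 45 kept direction and call under every alternative run, and of 57 differences 6 did. Thinning ended 32 of 81 age calls. The 1260645 UMIs of aged members limit what can be seen of low genes.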
